A study of Mus musculus with 23 samples.

Results

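Emerin KO (knockout) gastrocnemius muscle was compared with control gastrocnemius 4 days after the injection that starts a cycle of degeneration and regeneration. These are 5 of the 23 arrays of the study, 3 of emerin KO and 2 of control, taken by genotype and day from the sample titles and descriptions. The other arrays cover days 0 and 3 of the same genotypes and lamin A/C KO on all 3 days. Differences are given on all 11164 genes that were bright enough to be tested.

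The labels give the genotype of the first group as emerin KO with no further detail of the allele, and all 5 muscles had received the injection. The labels used here do not give the injected agent, the strain, the age or the sex. By their titles the control mice belong to the lamin A line, and a difference in background between that line and the emerin line cannot be told apart from the effect of the emerin genotype. The genotype of control replicate 2 comes from its title, since its description leaves it out. Nothing in the labels says whether the arrays of 1 group stand for different animals, and the p-values rest on the spread between these samples, which may be technical.

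Emerin is a LEM-domain protein of the inner nuclear membrane that binds lamins and chromatin, and its gene is mutated in X-linked Emery-Dreifuss muscular dystrophy. Injured muscle is first cleared by infiltrating leukocytes, while satellite cells divide, leave the cell cycle and fuse into new fibers under the control of the MyoD family. The retinoblastoma protein, which binds E2F factors, takes part in that exit. The comparison asks how muscle without emerin differs from control while it regenerates.

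Signals are linear brightness values of a probe set after every array was scaled to the same trimmed mean, and a signal of 100 was the minimum for the filter. Differences are means of log2(signal + 32) in emerin KO minus control, with the SE, and the threshold was an adjusted p under 0.05 from limma over all genes tested. With 3 arrays against 2, precision is limited by their number, and in whole muscle fewer cells of a type and less RNA per cell cannot be told apart.

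Muscle, regenerating fiber, macrophage and fibroblast markers were bright on all 5 arrays, among them Acta1, skeletal alpha-actin, and Myh3, the embryonic myosin heavy chain. The summed signal of 4 macrophage markers was 19454, 20752 and 20405 on the emerin KO arrays and 15515 and 15541 on the control arrays. That of 3 fibroblast markers was 26715, 30633 and 26227 in emerin KO and 29826 and 37907 in control. The 4 markers of satellite cells and myoblasts summed to 4276, 4208 and 4584 in emerin KO and to 3094 and 2366 in control. The myoblast sums did not overlap between the groups, with emerin KO above control, and the fibroblast sums did overlap. The myoblast difference lay in Myod1 and Cdh15, the brightest of the 4. Pax7 had 192, 190 and 184 in emerin KO and 162 and 179 in control. Myf5 overlapped, with 149, 197 and 141 in emerin KO and 235 and 108 in control. The macrophage sums were also apart, but this depended on Csf1r, the brightest of the 4: without it they were 9380, 10993 and 8670 in emerin KO and 8989 and 7869 in control, which overlap. The sum without Csf1r was added after the values had been seen. Cd68 was also apart by itself, with 3746.2, 4266.5 and 4313.6 in emerin KO and 2661.8 and 2904.9 in control. The other macrophage markers, Adgre1 and Mpeg1, overlapped. Neutrophil markers stood out on emerin KO replicate 3, with a sum of 3044, against 800 and 977 on emerin KO replicates 1 and 2 and 488 and 758 in control.

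The ratio of the 3' to the 5' control probe set of Gapdh, which rises when RNA is degraded or incompletely copied, was 2.89, 1.40 and 5.30 on emerin KO replicates 1, 2 and 3. It was 0.932 and 1.23 on the control arrays, and between 0.822 and 1.64 on all 15 control and lamin A/C KO arrays. Only replicate 2 of emerin KO lay within that range. Over the 11164 genes, replicate 2 correlated with the control arrays at 0.961 and 0.946, against 0.934 and 0.927 for replicate 1 and 0.916 and 0.918 for replicate 3. Genes share their arrays, so these correlations are descriptions. Values of replicate 2 are therefore given beside most groups of genes, and the part of RNA quality in the differences of the other arrays was not tested.

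The targeted gene, Emd, was lower on every emerin KO array. Its signal was 239, 169 and 213 in emerin KO and 663 and 722 in control. The groups were far apart and the lowest value was on replicate 2, with a difference of -1.61 ± 0.27 (log2 ± SE, adjusted p = 0.0017). Emd was also lower in emerin KO on day 3, by a log2 difference of -1.57 (adjusted p = 0.00047), while the day 0 difference of -0.65 did not pass (adjusted p = 0.27). Lmna, the gene of lamins A and C, had 3744, 4499 and 4431 in emerin KO and 3785 and 3702 in control, a difference of 0.17 ± 0.20 that did not pass (adjusted p = 0.69).

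In all, 288 genes were higher and 367 lower in emerin KO than in control on day 4, which is 2.58% and 3.29% of the genes tested; 2340 genes (21%) had an unadjusted p under 0.05. The median difference was 0.83 among the higher genes and -0.96 among the lower ones, and 90 and 166 of them differed by more than 2-fold. The arrays of the groups did not overlap in 2417 genes with emerin KO above control (21.6%) and in 1740 with emerin KO below it (15.6%). Among the genes past the threshold this held for 287 of the 288 higher and 361 of the 367 lower ones. A lack of overlap in a gene that passed is therefore a description and adds little to the call. Replicate 2 moved the same way as the mean of all arrays in 288 of 288 and 367 of 367 genes. Its median difference from control was 0.73 for the higher genes, against 0.87 for the mean of replicates 1 and 3, but -0.60 for the lower genes, against -1.11. Replicate 2 showed less than 0.5 times the difference of the other arrays in 157 lower genes (42.8%) and in 20 higher genes (6.94%). The direction in replicate 2 is in part set by the choice of genes, since its values entered the mean.

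**Figure D1:**
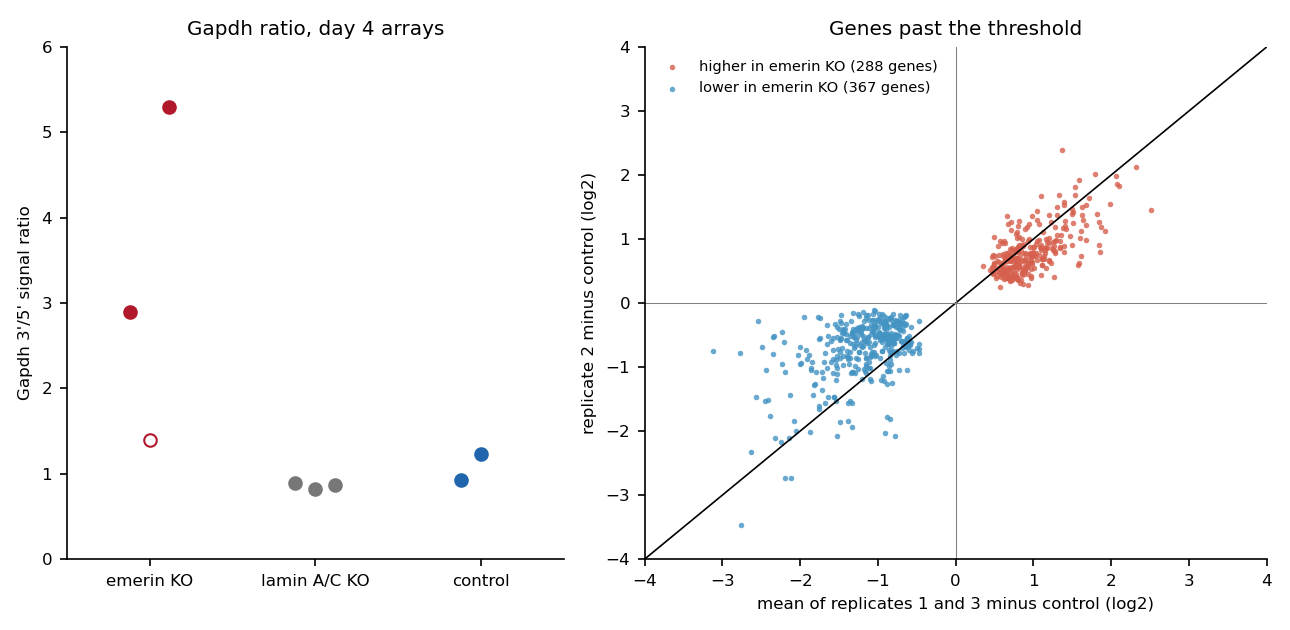
Left, the Gapdh 3'/5' signal ratio of each day 4 array by genotype; the open circle is emerin KO replicate 2, at 1.40. Right, for the 288 higher (red) and 367 lower (blue) genes, the log2 difference from control of replicate 2 (vertical) against that of the mean of replicates 1 and 3 (horizontal), with the line of equal values; many lower genes lie between that line and 0.

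The size of the list depended on the arrays. A fit with 1 emerin KO array also has larger SEs, for Emd 0.37 against 0.27. SEs are larger with the Gapdh ratio as a covariate too, 0.267 against 0.195 for Cap1 and 0.242 against 0.175 for Sox11. The ratio was raised only on emerin KO arrays of days 3 and 4, so the covariate and the genotype are partly confounded. With the covariate Emd, the targeted gene, missed the threshold at a difference of -1.575. A gene that misses the threshold in either fit is therefore not shown to be unchanged. With replicate 2 as the only emerin KO array and the spread taken from the other groups, 17 genes passed, and with the Gapdh ratio as a covariate 20 genes passed.

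Of those 17 genes, 13 also passed with the covariate. Cap1, an adenylyl cyclase-associated protein that binds actin, had 722, 412 and 511 in emerin KO and 3187 and 2658 in control (-2.38 ± 0.20, adjusted p = 3.5e-07). Sox11, a transcription factor of developing tissue, had 233, 235 and 218 in emerin KO and 1097 and 983 in control (-2.04 ± 0.18, adjusted p = 4.2e-07). Replicate 2 was as low as the other emerin KO arrays for both genes, and the groups were well separated. Gdpd3, a lysophospholipase D, had 146, 196 and 160 in emerin KO and 1131 and 1098 in control (-2.53 ± 0.21, adjusted p = 3.5e-07). Aspn, the small proteoglycan asporin, had 380, 400 and 376 in emerin KO and 2205 and 1673 in control (-2.23 ± 0.23, adjusted p = 5.4e-06). Glo1, the glyoxalase that detoxifies methylglyoxal, had 786, 797 and 470 in emerin KO and 2209 and 1969 in control (-1.60 ± 0.18, adjusted p = 3.3e-05). All 3 genes were low on every emerin KO array, with little spread for Aspn and the lowest Glo1 value on replicate 3.

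Sln, sarcolipin, which inhibits the calcium pump of the sarcoplasmic reticulum, had 1264, 1720 and 964 in emerin KO and 5910 and 5971 in control (-2.19 ± 0.22, adjusted p = 3.9e-06). Car3, carbonic anhydrase 3 of muscle and fat, had 3069, 1816 and 2494 in emerin KO and 7434 and 6633 in control (-1.53 ± 0.20, adjusted p = 0.00016). Cpe, carboxypeptidase E, had 540, 657 and 387 in emerin KO and 1463 and 1399 in control (-1.41 ± 0.18, adjusted p = 0.00011). Replicate 2 was the highest emerin KO array for Sln and Cpe and the lowest for Car3, and each gene's groups were apart; the other probe set of Cpe had the opposite sign. Among the 13 genes, the fibrillar collagen genes Col2a1 and Col11a1 were lowest on replicate 2, with 80.2 for Col2a1 against 183 and 171 on replicates 1 and 3, and 576 for Col11a1 against 1348 and 1596. Control had 329 and 381 for Col2a1 and 2324 and 2771 for Col11a1.

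Only 3 of the 13 were higher in emerin KO. Ncapg2, a condensin II subunit, had 622, 1069 and 424 in emerin KO and 187 and 171 in control (1.71 ± 0.28, adjusted p = 0.0017). Alpk3, a muscle alpha-kinase, had 2550, 2936 and 2040 in emerin KO and 952 and 833 in control (1.45 ± 0.22, adjusted p = 0.00065). Gfer, a sulfhydryl oxidase of the mitochondrial intermembrane space, had 707, 637 and 759 in emerin KO and 282 and 234 in control (1.34 ± 0.15, adjusted p = 2.8e-05). Replicate 2 was the highest array for Ncapg2 and Alpk3, and all emerin KO arrays lay above both control arrays for the 3 genes. The other probe set of Gfer had the opposite sign. Glo1, Cpe, Alpk3, Gfer, Col2a1 and Col11a1 were singled out after their values had been seen.

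**Figure D2:**
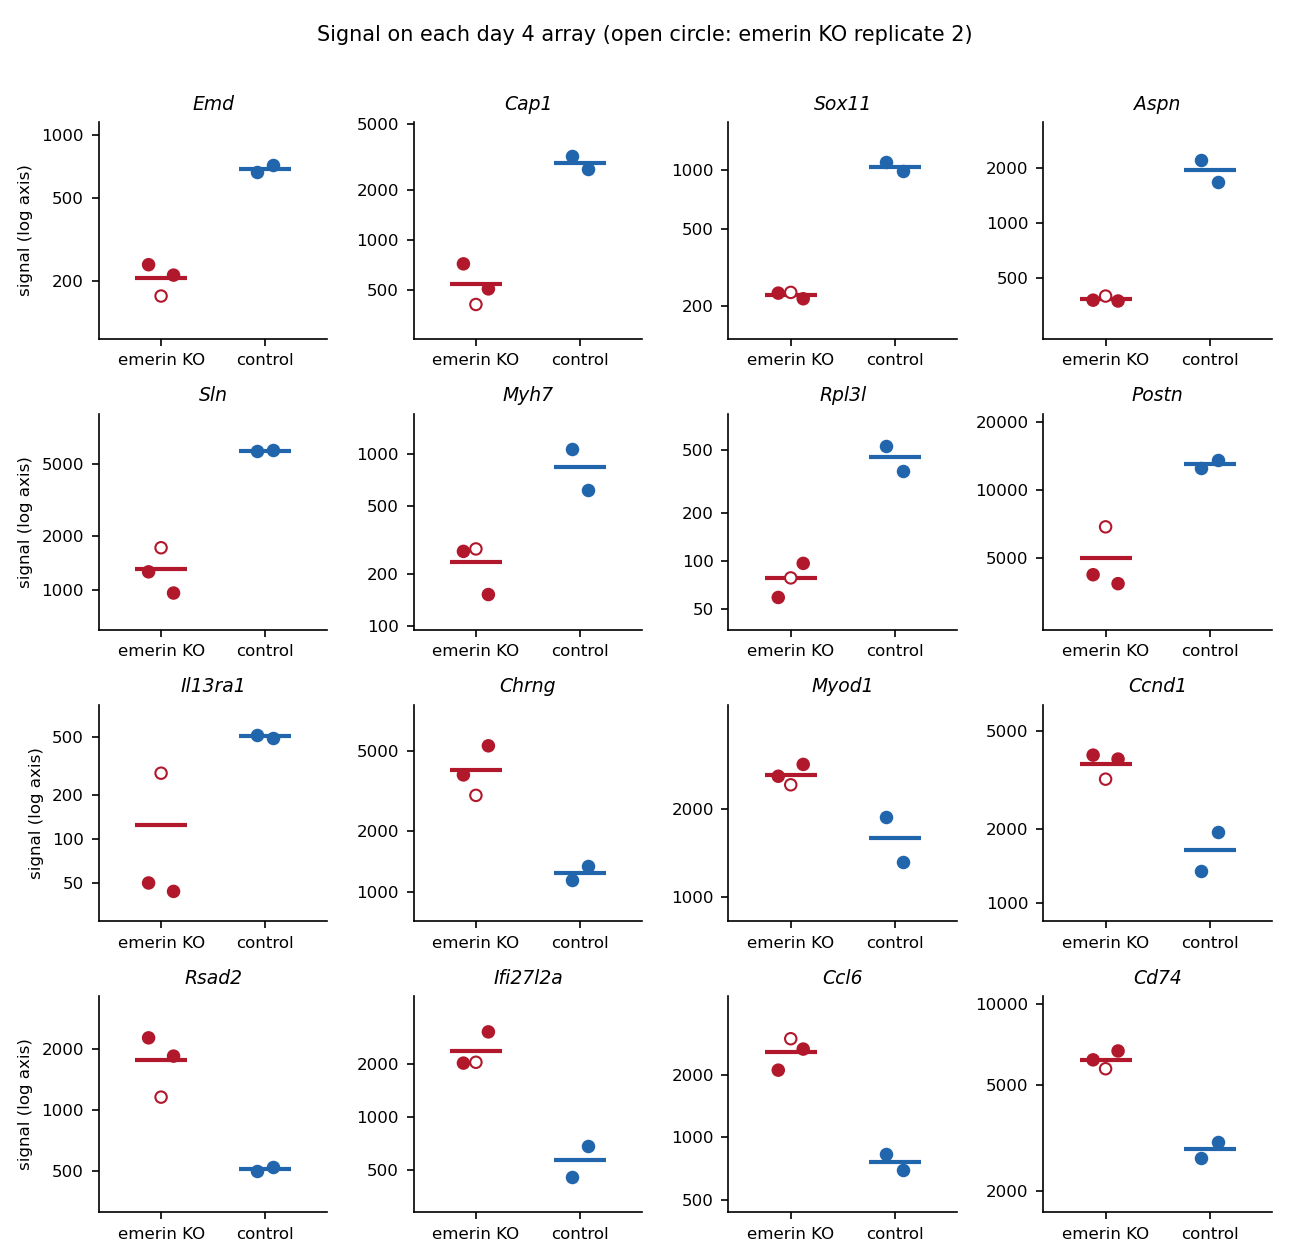
Signal of 16 genes on each day 4 array (log axis), with emerin KO at the left and control at the right; lines are group means and the open circle is emerin KO replicate 2. The groups are apart in each panel; Sox11 and Aspn are equally low on all emerin KO arrays, while Postn and Il13ra1 are highest there on replicate 2.

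Other large falls were those of Hal, Rpl3l, Moxd1, Msantd2, Atp1b4 and Nfia. Hal, histidine ammonia-lyase, had 32.9, 13.6 and 52.2 in emerin KO and 413 and 536 in control, at least 4.75-fold lower against the minimum signal. Rpl3l, the striated-muscle paralog of ribosomal protein L3, had 59.0, 78.4 and 96.8 in emerin KO and 533 and 372 in control, at least 4.52-fold lower. Moxd1, a monooxygenase-like protein of the endoplasmic reticulum, had 41.9, 29.3 and 85.5 in emerin KO and 373 and 374 in control, at least 3.74-fold lower. All emerin KO arrays were under the minimum for these genes, as they were for Msantd2, which was at least 1.63-fold lower. Atp1b4, a muscle protein related to sodium pump beta subunits and located at the inner nuclear membrane, had 258, 435 and 179 in emerin KO and 1490 and 1172 in control (-2.15 ± 0.32, adjusted p = 0.00065). Nfia, a transcription factor of the nuclear factor I family, had 113, 117 and 80.4 in emerin KO and 644 and 576 in control (-2.26 ± 0.30, adjusted p = 0.00024). Replicate 2 was the highest emerin KO array for both, and well under control.

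The remaining large falls were smaller on replicate 2. Itm2a, a membrane protein of differentiating muscle, had 1012, 1980 and 811 in emerin KO and 6590 and 4659 in control (-2.20 ± 0.30, adjusted p = 0.00024). Mfap4, a microfibril-associated protein, had 349, 677 and 342 in emerin KO and 2087 and 1886 in control (-2.11 ± 0.48, adjusted p = 0.013). For both genes replicate 2 stood between the other emerin KO arrays and control. Tmem38a, a potassium channel of the sarcoplasmic reticulum, had 106, 466 and 35.0 in emerin KO and 984 and 661 in control (-2.33 ± 0.59, adjusted p = 0.025). Il13ra1, a receptor chain for interleukins 4 and 13, had 49.7, 282 and 43.5 in emerin KO and 519 and 492 in control (-2.11 ± 0.53, adjusted p = 0.023). Replicate 2 was several times brighter than the other emerin KO arrays for this pair, and 1 of the 4 other probe sets of Il13ra1 had the opposite sign.

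Slow fiber genes held the largest share of lower members of any list of more than 10 genes: 5 of 13 tested members fell and 0 rose, with a median of -0.45 against 0.04 over all genes tested. Beside Sln these were Myh7, the slow myosin heavy chain, Myl2 and Myl3, the slow myosin light chains, and Fhl1, a LIM-domain protein also mutated in a form of Emery-Dreifuss muscular dystrophy. Myh7 had 272, 281 and 153 in emerin KO and 1066 and 617 in control (-1.70 ± 0.25, adjusted p = 0.00063). Myl2 had 401, 412 and 186 in emerin KO and 1163 and 802 in control (-1.52 ± 0.39, adjusted p = 0.026). Myl3 had 157, 154 and 121 in emerin KO and 660 and 399 in control (-1.64 ± 0.29, adjusted p = 0.0022). Replicate 2 was as low as replicate 1 for the 3 myosin genes, and control replicate 2 was lower than control replicate 1. Fhl1 had 4046, 4865 and 2028 in emerin KO and 7666 and 8205 in control (-1.21 ± 0.27, adjusted p = 0.012). The slow troponin genes Tnni1 and Tnnt1 did not pass, with differences of 0.27 and 0.38. The list was split: 6 members were positive and 7 negative, and 3 were higher and 7 lower at an unadjusted p under 0.05. The list's median was -0.10 on replicate 2 and -0.62 on replicates 1 and 3, and Sln alone of the list passed with replicate 2 alone. The 5 calls became 3 without emerin KO replicate 3, 2 and 3 without control replicates 1 and 2, and 1 with the Gapdh covariate. Without emerin KO replicate 2 there were 6 lower and 2 higher members, and with quantile normalization 5 lower and 1 higher.

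The 3 slow myosin genes were low in lamin A/C KO as well. In lamin A/C KO, whose comparison uses the same control arrays, Myh7 averaged 117 and was lower than control by a log2 difference of -2.50 (adjusted p = 8.2e-06). Myl3 averaged 61.2 in lamin A/C KO (-2.56, adjusted p = 4.4e-05) and Myl2 averaged 185 there (-2.24, adjusted p = 0.023). Emerin KO lay above lamin A/C KO in Myh7 by 0.81 (adjusted p = 0.017) and in Myl3 by 0.92 (adjusted p = 0.017). The day 3 control arrays averaged 253 for Myh7, 237 for Myl2 and 208 for Myl3, under their day 4 values in control of 842, 983 and 529.

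Fast fiber contractile genes had 0 higher and 2 lower members of 26 tested, with a median of -0.20, and 21 of the 26 were negative. Pvalb, the calcium buffer parvalbumin of fast fibers, had 1494, 929 and 1275 in emerin KO and 3977 and 4089 in control (-1.71 ± 0.48, adjusted p = 0.038). Ldb3, a Z-disc protein, had 1148, 1425 and 647 in emerin KO and 2917 and 2228 in control (-1.29 ± 0.26, adjusted p = 0.0052). Pvalb was lowest on replicate 2 and Ldb3 highest there, and Pvalb missed the threshold when any 1 of the 5 arrays was left out. Of 21 members of the dystrophin complex and sarcolemma, 0 rose and 2 fell: Dysf, which takes part in membrane repair, by 1.14 (adjusted p = 0.020) and Itgb1, integrin beta 1, by 0.60 (adjusted p = 0.017). On replicate 2 Dysf differed from control by -1.19 and Itgb1 by -0.43, and the list's median was -0.05 there and -0.35 on replicates 1 and 3. Without control replicate 1, 0 members of the fast fiber list and 0 of the dystrophin list passed, with 9 and 2 lower at an unadjusted p under 0.05.

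Genes of embryonic and regenerating fibers rose in 4 of 26 members and fell in 1, with a median of -0.01. Without control replicate 1, and also with the Gapdh covariate, 0 members passed in either direction; at an unadjusted p under 0.05 there were 5 higher and 2 lower, and 5 higher and 1 lower. Without control replicate 2 the counts were 2 and 1. Of the 4, Chrng, Chrnd and Chrna1 encode subunits of the acetylcholine receptor of young and denervated fibers, and Cdh15 encodes M-cadherin of satellite cells and myoblasts. Chrng, the fetal gamma subunit, had 3818, 3019 and 5334 in emerin KO and 1139 and 1345 in control (1.65 ± 0.30, adjusted p = 0.0029). Chrna1, the alpha subunit, had 7109, 7525 and 8265 in emerin KO and 4672 and 4610 in control (0.71 ± 0.15, adjusted p = 0.0074). Chrnd, the delta subunit, had 153, 203 and 173 in emerin KO and 29.0 and 41.8 in control, at least 1.76-fold higher. All emerin KO arrays lay above both controls for the 3 subunits, replicate 2 included; a second, dim probe set of Chrng had the opposite sign. Myh3 averaged 8530 in emerin KO and 8592 in control, and Myh8, the perinatal myosin, 3361 and 4500, neither past the threshold, and Mest, an imprinted gene of growing tissue, fell by 1.13 (adjusted p = 0.0049).

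The promoters of Chrng and Chrna1 are shown because they hold CAGCTG, an E-box that MyoD family factors can bind. Each runs from 250 bases before to 50 after the start of the gene in RefSeq (GRCm38.p6), 5′ to 3′ on the gene's own strand, with CAGCTG in capitals; the word reads the same on both strands. Chrng lies on chr1:87205561-87205860 (+ strand) with matches at -155 and -132, and Chrna1 on chr2:73580289-73580588 (- strand) with matches at -92 and -44.
Chrng: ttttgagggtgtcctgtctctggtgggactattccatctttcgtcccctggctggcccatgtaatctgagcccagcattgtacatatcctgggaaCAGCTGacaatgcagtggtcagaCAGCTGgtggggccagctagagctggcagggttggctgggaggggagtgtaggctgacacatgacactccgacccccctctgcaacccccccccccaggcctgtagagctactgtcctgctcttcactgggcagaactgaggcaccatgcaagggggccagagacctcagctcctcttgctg
Chrna1: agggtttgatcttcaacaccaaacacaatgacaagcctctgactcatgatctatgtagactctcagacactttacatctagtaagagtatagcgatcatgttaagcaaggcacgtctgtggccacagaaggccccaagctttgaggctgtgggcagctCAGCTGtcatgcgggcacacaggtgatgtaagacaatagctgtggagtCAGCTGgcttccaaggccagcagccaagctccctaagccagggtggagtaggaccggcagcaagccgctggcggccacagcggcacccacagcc
Of 27025 genes with a promoter in the table, 2.12% held at least 2 such words, as did 2.43% of the higher and 1.05% of the lower genes with an entry. At least 1 such word stood in 18.3% of all promoters of the table, in 19.4% of those of the higher and 18.1% of those of the lower genes. A match is a description of these letters, not a measured binding site. The promoter of Chrnd is not shown, and a part of MyoD family factors in the receptor rise was not tested.

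Myogenic regulators rose in 3 of 30 members and fell in 1, with a median of 0.12. Myod1, which commits cells to muscle, had 2592, 2423 and 2846 in emerin KO and 1873 and 1321 in control (0.72 ± 0.16, adjusted p = 0.011). Cdh15 had 1343, 1397 and 1413 in emerin KO and 824 and 758 in control (0.78 ± 0.16, adjusted p = 0.0055). Both were higher on every emerin KO array than on either control array. Mef2d rose by 0.47 (adjusted p = 0.043) and Mef2c, a partner of the MyoD family in later differentiation, fell by 0.58 (adjusted p = 0.037). Myog, which acts after Myod1, had 4677, 4766 and 5098 in emerin KO and 3895 and 3351 in control, a difference of 0.42 ± 0.18 that did not pass (adjusted p = 0.19). Pax7, the satellite cell factor, differed by 0.12 and did not pass, nor did Myf5, with 149, 197 and 141 in emerin KO and 235 and 108 in control. The list's 3 higher calls became 1 without emerin KO replicate 3 or control replicate 1 and 0 without control replicate 2, where 5 members were higher and 4 lower at an unadjusted p under 0.05. With the Gapdh covariate 0 members passed in either direction, and 5 were higher and 2 lower at an unadjusted p under 0.05.

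In the Rb/E2F pathway, 1 of 29 members rose, 1 fell and 27 did not pass, with a median of 0.05. These counts are near the shares over all genes, 2.58% higher and 3.29% lower. Rb1, the retinoblastoma gene, had 545, 679 and 556 in emerin KO and 708 and 674 in control (-0.22 ± 0.19, adjusted p = 0.56). The groups overlapped through replicate 2. Ccnd1, cyclin D1, which drives phosphorylation of the retinoblastoma protein, had 3982, 3180 and 3838 in emerin KO and 1348 and 1940 in control (1.16 ± 0.23, adjusted p = 0.0051). E2f6, a repressing E2F, had 206, 330 and 241 in emerin KO and 689 and 560 in control (-1.19 ± 0.21, adjusted p = 0.0027). Cyclin D1 was high and E2f6 low on all 3 emerin KO arrays. E2f1 had 524, 417 and 551 in emerin KO and 175 and 377 in control, a difference of 0.86 that did not pass (adjusted p = 0.17).

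DNA replication genes rose in 4 of 39 members and fell in 0, and 33 of the 39 were positive, with a median of 0.32. Mcm7, a subunit of the replicative helicase, had 3112, 2795 and 3452 in emerin KO and 1663 and 2051 in control (0.74 ± 0.22, adjusted p = 0.0496). Cdt1, which loads that helicase, had 1636, 1408 and 1717 in emerin KO and 991 and 897 in control (0.73 ± 0.18, adjusted p = 0.024). The groups did not overlap in either gene. Rpa1, a single-strand DNA binding protein, rose by 0.58 (adjusted p = 0.020). Rrm2, a ribonucleotide reductase subunit, rose by 0.66 on its brightest probe set (adjusted p = 0.020), but both of its other probe sets were lower, by 0.39 and 0.20. Mitosis genes rose in 2 of 43 members: Plk1, a mitotic kinase, by 0.99 (adjusted p = 0.018), and Pttg1, securin, by 0.79 (adjusted p = 0.0048). Over all genes 2.58% were higher, and 9 mitosis genes were higher and 2 lower at an unadjusted p under 0.05. On replicate 2 the median of the replication list was 0.40 and that of the mitosis list 0.18, against 0.27 and 0.19 on the other arrays. The 4 replication calls became 1, 7 and 0 without emerin KO replicates 1, 2 and 3, and 0 and 2 without control replicates 1 and 2. They became 0 with median scaling and with the Gapdh covariate. Where none passed, 5 to 8 members were higher and 0 lower at an unadjusted p under 0.05. The 2 mitosis calls became 1 without emerin KO replicate 1 or 3 or control replicate 1, and 0 without control replicate 2, where 6 members were higher and 1 lower at an unadjusted p under 0.05. With the Gapdh covariate 0 mitosis genes passed, and 3 were higher and 0 lower at an unadjusted p under 0.05.

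Interferon response genes rose in 9 of 27 members and fell in 0, and their median of 0.74 was the highest of all 38 lists. Rsad2, the antiviral protein viperin, had 2259, 1157 and 1838 in emerin KO and 504 and 523 in control (1.66 ± 0.37, adjusted p = 0.011). Ifi27l2a, a small interferon-induced membrane protein, had 2032, 2055 and 3066 in emerin KO and 455 and 681 in control (2.01 ± 0.33, adjusted p = 0.0015). Bst2, tetherin, which holds virus particles at the cell surface, had 612, 746 and 692 in emerin KO and 231 and 226 in control (1.45 ± 0.29, adjusted p = 0.0057). All 3 were higher on every emerin KO array, with Rsad2 weakest on replicate 2 and Bst2 strongest there. Irf7, the factor that amplifies the interferon loop, had 1227, 1207 and 908 in emerin KO and 367 and 451 in control (1.37 ± 0.31, adjusted p = 0.014). Ifit1, which binds foreign RNA, had 951, 563 and 656 in emerin KO and 325 and 265 in control (1.18 ± 0.30, adjusted p = 0.024). Oasl2 had 637, 692 and 420 in emerin KO and 234 in each control (1.18 ± 0.33, adjusted p = 0.036). No array of emerin KO overlapped with control in these genes. Tap1 and Psmb9, of peptide transport and the immunoproteasome, rose by 0.93 and 0.83, and Igtp, an interferon-induced GTPase, by 0.70 (adjusted p = 0.0497). The count of 9 depended on single arrays: it was 2, 9 and 5 without emerin KO replicates 1, 2 and 3, and 0 and 3 without control replicates 1 and 2. It was 0 with the Gapdh ratio as a covariate. In both settings with a count of 0, 13 members were higher at an unadjusted p under 0.05, and the list's median was 0.63 to 0.88 over these 6 settings.

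The rise of the list was as large on replicate 2, with a median of 0.86, as on replicates 1 and 3, with 0.80, although with replicate 2 alone 0 members passed and 15 had an unadjusted p under 0.05, all of them higher. Among the 15 largest rises of the whole comparison were the interferon-inducible Oas3, an oligoadenylate synthetase, and Slfn4 and Slfn8 of the Schlafen family. Oas3 had 641, 354 and 539 in emerin KO and 66.6 and 260 in control (1.64 ± 0.44, adjusted p = 0.031). Slfn8 had 488, 345 and 467 in emerin KO and 103 and 91.1 in control (1.84 ± 0.37, adjusted p = 0.0059). Slfn4 had 398, 476 and 408 in emerin KO and 160 and 49.8 in control (1.87 ± 0.50, adjusted p = 0.030). On the log2 scale the control arrays differed more from each other in Oas3 and Slfn4 than the emerin KO arrays did.

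Promoters of interferon genes are shown for the core of the interferon-stimulated response element, GAAA, any 2 bases and GAAA again, which was searched on both strands and appears as TTTC, any 2 bases and TTTC where it lies on the other one. The windows are built as above. Rsad2 lies on chr12:26456403-26456702 (- strand) with 1 match at -120, and Ifit1 on chr19:34640639-34640938 (+ strand) with matches at -104 and -85; matches are in capitals.
Rsad2: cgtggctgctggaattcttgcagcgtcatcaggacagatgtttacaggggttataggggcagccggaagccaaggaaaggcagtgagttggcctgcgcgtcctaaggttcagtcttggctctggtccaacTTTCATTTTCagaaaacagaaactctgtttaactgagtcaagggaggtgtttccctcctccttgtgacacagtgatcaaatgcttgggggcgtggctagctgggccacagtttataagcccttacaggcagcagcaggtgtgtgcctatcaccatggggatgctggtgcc
Ifit1: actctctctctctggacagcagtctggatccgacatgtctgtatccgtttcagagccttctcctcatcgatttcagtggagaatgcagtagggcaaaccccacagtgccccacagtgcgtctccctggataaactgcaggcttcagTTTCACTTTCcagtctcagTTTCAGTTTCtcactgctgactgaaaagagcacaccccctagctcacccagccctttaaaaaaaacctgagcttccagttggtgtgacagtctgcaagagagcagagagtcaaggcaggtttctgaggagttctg
At least 1 match stood in 3.99% of the 27025 promoters, in 8.10% of the promoters of the higher genes (20 of 247 with an entry) and in 3.48% of those of the lower genes (10 of 287). Of the 9 interferon genes that rose, 8 had an entry and 4 of these held a match. The absence of these letters from a window says nothing about the factor.

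Macrophage genes rose in 6 of 34 members and fell in 0, with a median of 0.27. Laptm5, a lysosomal membrane protein of leukocytes, had 4402, 4121 and 5551 in emerin KO and 1539 and 2155 in control (1.34 ± 0.24, adjusted p = 0.0027). Aif1, which marks activated macrophages, had 1127, 1135 and 1496 in emerin KO and 553 and 539 in control (1.14 ± 0.20, adjusted p = 0.0027). Csf1r, the receptor of the macrophage growth factor, had 10074, 9759 and 11735 in emerin KO and 6526 and 7672 in control (0.57 ± 0.14, adjusted p = 0.023). The groups did not overlap for any of the 3. C1qa, a chain of complement C1q, rose by 0.63 (adjusted p = 0.015) and Lgmn, a lysosomal protease, by 0.73 (adjusted p = 0.026). C1qc, another C1q chain, differed by 0.84 with an adjusted p of 0.048 and missed the threshold when any 1 of the 5 arrays was left out. Among the macrophage markers Mpeg1 and Adgre1 overlapped between the groups, with 3928, 4683 and 2865 for Mpeg1 in emerin KO and 4399 and 3639 in control. Also among the largest rises were Ly86, Cbr2 and Aoah. Ly86, which binds a Toll-like receptor relative on leukocytes, had 2823, 3026 and 3613 in emerin KO and 835 and 1073 in control (1.69 ± 0.26, adjusted p = 0.00076). Cbr2, a carbonyl reductase, had 1857, 1923 and 2701 in emerin KO and 371 and 686 in control (2.01 ± 0.30, adjusted p = 0.00076). Aoah, which inactivates bacterial lipopolysaccharide, had 228, 222 and 240 in emerin KO and 66.0 and 9.7 in control, at least 2.30-fold higher. Replicate 2 was close to the other emerin KO arrays in all of them. With replicate 2 alone 0 of the 34 macrophage genes passed and 10 had an unadjusted p under 0.05, all higher. The 6 calls became 4 and 2 without emerin KO replicates 1 and 3, 1 without control replicate 1, 3 with median scaling and 1 with the Gapdh covariate.

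Chemokines and cytokines rose in 5 of 29 members and fell in 0, with a median of 0.62. Ccl6 had 2101, 2973 and 2652 in emerin KO and 831 and 698 in control (1.70 ± 0.30, adjusted p = 0.0025). Ccl9, a related macrophage chemokine, had 2349, 3399 and 2175 in emerin KO and 1075 and 1009 in control (1.29 ± 0.25, adjusted p = 0.0045), and its other probe set had the opposite sign. Replicate 2 was the brightest array for both, and Ccl9 passed with replicate 2 alone. Cxcl10, which attracts T cells, had 363, 386 and 327 in emerin KO and 105 and 90.6 in control (1.59 ± 0.38, adjusted p = 0.019). Il1b, the inflammatory cytokine interleukin 1 beta, rose by 1.11 (adjusted p = 0.023) and Ccl8 by 0.89 (adjusted p = 0.025). In lamin A/C KO on day 4 Cxcl10 averaged 507 and Ccl8 3146, close to or above the emerin KO means of 359 and 2844. Ccl6 and Ccl9 averaged 1124 and 1477 in lamin A/C KO, under the emerin KO means of 2575 and 2641. Their emerin KO minus lamin A/C KO differences of 1.17 and 0.85 passed (limma, adjusted p = 0.0057 and 0.013). The 5 calls of the list became 2 without emerin KO replicate 3, 1 and 2 without control replicates 1 and 2, and 0 with the Gapdh covariate, where 7 members were higher at an unadjusted p under 0.05.

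All 9 measured genes of MHC class II presentation were positive and 3 rose. Cd74, the invariant chain, had 6182, 5728 and 6672 in emerin KO and 2671 and 3060 in control (1.10 ± 0.20, adjusted p = 0.0029). H2-Eb1, a class II beta chain, had 3061, 2862 and 2642 in emerin KO and 1617 and 1623 in control (0.80 ± 0.22, adjusted p = 0.032), and H2-DMa rose by 0.76 (adjusted p = 0.028). The groups were apart on all arrays for the named 3, yet the list's median was 0.10 on replicate 2 and 0.56 on the others. The 3 calls became 1 without emerin KO replicate 1 or 3 or control replicate 2, and 0 without control replicate 1, where 4 members were higher at an unadjusted p under 0.05. They were 0 with the Gapdh covariate too, where 3 members were higher at an unadjusted p under 0.05. Of the neutrophil list, Il1b alone of 12 rose, and Saa3, an acute-phase protein among the largest rises, had 426, 512 and 2756 in emerin KO and 161 and 173 in control. Its difference of 2.16 ± 0.60 (adjusted p = 0.037) was largest on replicate 3, the array on which S100a9 also stood at 1582, against 284 and 366 on the other emerin KO arrays and 127 and 283 in control. The part of neutrophils in the rise of Saa3 was not tested. Cyp4f18, a P450 that degrades leukotriene B4 in neutrophils, had 430, 391 and 471 in emerin KO and 29.6 and 120 in control (2.25 ± 0.48, adjusted p = 0.0088). Unlike Saa3 it was even over the emerin KO arrays. Aire, known from the thymus, was dim, with 121, 108 and 201 in emerin KO and 12.7 and 32.2 in control, at least 1.43-fold higher.

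**Figure D3:**
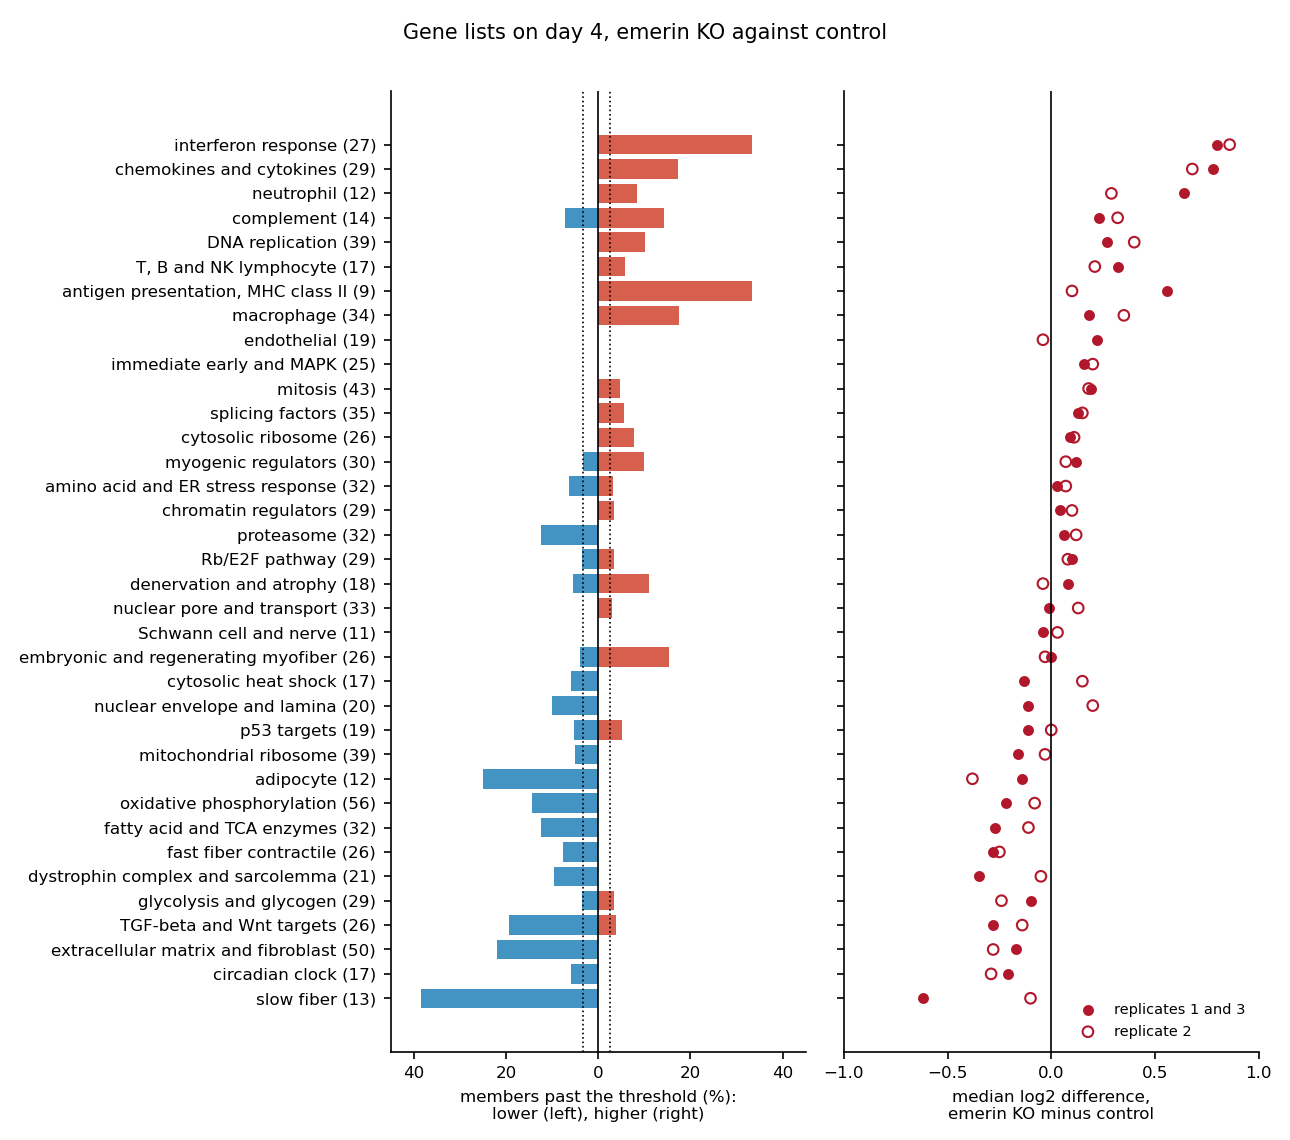
Left, percent of the tested members (number in parentheses) of each list of 9 or more genes that were lower (blue) or higher (red) in emerin KO; dotted lines are the shares over all genes, 3.29% and 2.58%. Right, the median log2 difference from control on replicates 1 and 3 (filled) and on replicate 2 (open); interferon genes lie highest, at 0.80 and 0.86.

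Extracellular matrix and fibroblast genes fell in 11 of 50 members and rose in 0, and 40 of the 50 were negative, with a median of -0.26. Postn, periostin, a matrix protein of healing tissue, had 4238, 6901 and 3869 in emerin KO and 12607 and 13667 in control (-1.43 ± 0.23, adjusted p = 0.0011). Col12a1, a fibril-associated collagen, had 454, 463 and 203 in emerin KO and 1283 and 1032 in control (-1.63 ± 0.37, adjusted p = 0.013). Lum, lumican, which spaces collagen fibrils, had 918, 1071 and 688 in emerin KO and 2275 and 2425 in control (-1.39 ± 0.24, adjusted p = 0.0020). Each was lower on all emerin KO arrays, and Postn was closest to control on replicate 2. Tnc, tenascin C, fell by 1.29 (adjusted p = 0.0027), Thbs2, thrombospondin 2, by 1.26 (adjusted p = 0.0012), and Ccn3 by 1.35 (adjusted p = 0.0027). The main fibrillar collagen gene Col1a1 had 13917, 16577 and 11036 in emerin KO and 14769 and 19817 in control, and Pdgfra, a marker of the fibroblast lineage, had 1499, 1603 and 1386 in emerin KO and 1575 and 1461 in control. Both overlapped between the groups. The list's median was -0.28 on replicate 2, and with replicate 2 alone 0 of its 50 members passed and 13 had an unadjusted p under 0.05, all of them lower. The 11 calls became 6 without emerin KO replicate 3, 3 and 7 without control replicates 1 and 2, 7 with median scaling, and 0 with the Gapdh covariate, where 17 members were lower at an unadjusted p under 0.05.

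Of 26 TGF-beta and Wnt genes, 5 fell and 1, Ccnd1, rose, with a median of -0.23. Those that fell were Tgfb3, a TGF-beta ligand, by 0.84 (adjusted p = 0.0047), Tgfbr1, a type I receptor, by 0.93 (adjusted p = 0.021), and Ltbp1, which keeps TGF-beta latent in the matrix, by 0.93 (adjusted p = 0.018). Ccn4, a Wnt-induced matricellular protein, had 555, 683 and 543 in emerin KO and 1293 and 1226 in control (-1.05 ± 0.17, adjusted p = 0.0015). Dkk3, of the dickkopf family, had 171, 64.1 and 185 in emerin KO and 451 and 290 in control (-1.29 ± 0.35, adjusted p = 0.036) and was lowest on replicate 2. The 5 lower calls became 3 without emerin KO replicate 1 or 3 and 1 without control replicate 1. With the Gapdh covariate 0 members of this list passed, and 2 were higher and 4 lower at an unadjusted p under 0.05. Of 12 adipocyte genes, 3 fell: Car3, Adipoq and Scd1. Adipoq, the fat-cell hormone adiponectin, had 494, 360 and 365 in emerin KO and 925 and 1358 in control (-1.41 ± 0.24, adjusted p = 0.0018). Scd1, a fatty acid desaturase, fell by 1.02 (adjusted p = 0.024), while Fabp4, a fatty acid binding protein of fat cells, had 3166, 2762 and 3354 in emerin KO and 3816 and 3798 in control.

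Genes of oxidative phosphorylation fell in 8 of 56 members and rose in 0, with a median of -0.18. Sdhd, a membrane subunit of complex II, had 1087, 1872 and 633 in emerin KO and 2186 and 2733 in control (-1.14 ± 0.30, adjusted p = 0.029). Uqcrfs1, the iron-sulfur subunit of complex III, had 1135, 2351 and 924 in emerin KO and 2910 and 2911 in control (-1.09 ± 0.26, adjusted p = 0.019). Ndufs4, of complex I, had 444, 792 and 322 in emerin KO and 1164 and 1018 in control (-1.11 ± 0.24, adjusted p = 0.010). In each of the 3, replicate 2 lay between the other emerin KO arrays and control. Over the emerin KO arrays the signal was lower where the Gapdh ratio was higher, and a link between them was not tested. The median of the list was -0.08 on replicate 2, against 0.01 over all genes on that array, and -0.22 on the others, against 0.08. With replicate 2 alone 0 of the 56 members passed and 2 had an unadjusted p under 0.05, against 17 with all arrays. The 8 calls became 1 without emerin KO replicate 1, 14 without replicate 2 and 0 without replicate 3, 0 and 3 without control replicates 1 and 2, and 2 with median scaling; 14 and 11 members were lower at an unadjusted p under 0.05 where none passed. Enzymes of fatty acid oxidation and the citric acid cycle fell in 4 of 32 members, among them Dld, a subunit shared by several dehydrogenase complexes, with 113, 217 and 70.7 in emerin KO and 515 and 350 in control (-1.56 ± 0.33, adjusted p = 0.0083). Idh3a, Echs1 and Fh1 fell too, the first with 1292, 1937 and 878 in emerin KO and 2890 and 2676 in control. In Dld, Idh3a and Fh1 too, replicate 2 was the highest and replicate 3 the lowest of the emerin KO arrays. This list had 8 calls without replicate 2, 1 without emerin KO replicate 3 or control replicate 1, and 0 with the Gapdh covariate. Of 29 glycolysis and glycogen genes, Hk1, a hexokinase, rose by 0.67 (adjusted p = 0.040) and Ugp2, which makes UDP-glucose for glycogen, fell by 0.93 (adjusted p = 0.0055). On replicate 2 their differences were 0.46 and -0.38. The 1 call in each direction is near the shares over all genes, 2.58% higher and 3.29% lower.

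Proteasome subunits fell in 4 of 32 members (Psma1, Psma4, Psmc6 and Psmd7, by 0.71 to 0.90) and rose in 0, while the list's median was 0.09, 19 of the 32 were positive, and 7 were higher and 9 lower at an unadjusted p under 0.05. Mitochondrial ribosomal proteins fell in 2 of 39 (Mrpl18 by 0.77 and Mrpl19 by 1.06). In these 6 genes replicate 2 was again the emerin KO array nearest to control. Cytosolic ribosomal proteins rose in 2 of 26, Rps6 by 1.22 (adjusted p = 0.00032) and Rps25 by 1.07 (adjusted p = 0.023), with 1.06 and 0.87 on replicate 2. Splicing factors rose in 2 of 35, Sfpq by 0.85 (adjusted p = 0.035) and Sf3b2 by 0.54 (adjusted p = 0.037), with 0.63 and 0.46 on replicate 2. At an unadjusted p under 0.05, 5 splicing factors were higher and 3 lower. These list counts stand beside 2.58% of all genes higher and 3.29% lower. Without control replicate 1, 0 members of the proteasome, mitochondrial ribosome and splicing lists passed, with 9, 4 and 5 at an unadjusted p under 0.05. Of 33 nuclear pore genes 1 was higher, near the 2.58% of all genes, while 6 were lower at an unadjusted p under 0.05. It was Nup210, a pore membrane protein induced in muscle differentiation, with 605, 455 and 630 in emerin KO and 195 and 298 in control (1.11 ± 0.22, adjusted p = 0.0054). Apart from Emd and Tmem38a, the other 18 of 20 nuclear envelope and lamina genes did not pass. In the amino acid and ER stress list Slc7a5, an amino acid transporter, rose (1118, 943 and 1388 in emerin KO, 548 and 554 in control, adjusted p = 0.024), and Herpud1 and Pdia3, of protein quality control in the endoplasmic reticulum, fell by 0.88 and 0.74. Of the endothelial, Schwann cell, erythroid, immediate early and sex-linked lists, with 19, 11, 2, 25 and 4 members tested, 0 members passed with limma, against 5.87% of all genes, and 4, 1, 1, 1 and 0 had an unadjusted p under 0.05.

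The day 4 differences were set beside those of days 3 and 0, which use other arrays. Of the 288 genes higher on day 4, 190 (66.0%) were also higher on day 3, which is 23.1% of the 824 genes higher then, and of the 367 lower genes 267 (72.8%) were lower on day 3, 26.8% of 996. The background on day 3 was 7.38% higher and 8.92% lower. The Gapdh ratio was 3.62 to 6.09 on the 3 emerin KO arrays of day 3, so the shared genes of days 3 and 4 include 2 sets of arrays with raised ratios. On day 0 it was 0.914 and 1.34 in emerin KO. Of the day 4 genes, 27 higher (9.38%) and 50 lower (13.6%) had passed in the same direction on day 0, against 1.23% and 2.03% of all genes, and these make up 19.7% and 22.0% of the day 0 lists. Genes already lower in uninjured emerin KO muscle included Gdpd3, with day 0 means of 41.1 in emerin KO and 1131 in control, and, by their day 0 differences, Mfap4 (-3.98), Col12a1 (-2.96), Postn (-1.92), Cap1 (-1.38), Itm2a (-1.36), Glo1 (-1.24) and Aspn (-1.22). Gfer, Alpk3, H2-Eb1 (1.39) and Cd74 were already higher, with day 0 adjusted p-values of 7.2e-06, 0.00052, 0.0012 and 0.0016. Of the 16 day 4 genes that passed with replicate 2 alone, 8 had also passed on day 0 and 14 on day 3, in the same direction.

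Between day 3 and day 4 the genotype difference itself changed in 5 genes (0.0448% of those tested), 4 with a positive (0.0358%) and 1 with a negative change (0.00896%). Igf2, the fetal growth factor, averaged 6382 in emerin KO and 8366 in control on day 4, against 1611 and 7073 on day 3, so its difference moved by 1.71 ± 0.27 (adjusted p = 0.011). It had also been lower in emerin KO on day 0, by a difference of -1.80, and only on day 4 did the difference miss the threshold (-0.41, adjusted p = 0.205). Itgb1bp2, a muscle chaperone called melusin that binds integrin beta 1, averaged 4637 in emerin KO and 3479 in control on day 4, against 1468 and 3096 on day 3 (change 1.47 ± 0.23, adjusted p = 0.011). Stbd1, a glycogen-binding protein, moved by 1.51 ± 0.26 (adjusted p = 0.024) and Apip, an enzyme of methionine salvage, by 1.28 ± 0.23 (adjusted p = 0.044). These 4 genes were lower than control on day 3 and did not pass on day 4. Myh7 went the other way, with a day 3 difference of 0.34 and a change of -2.04 ± 0.35 (adjusted p = 0.024).

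From day 0 to day 4 the genotype difference changed in 64 genes (0.573%), 40 with a positive (0.358%) and 24 with a negative change (0.215%). Myog was lower in emerin KO on day 0 (-1.06, adjusted p = 0.0034) and not on day 4, a change of 1.48 ± 0.27 (adjusted p = 0.010), and Chrna1 changed from lower on day 0 (-0.66) to higher on day 4, by 1.37 in all (adjusted p = 0.0043). Xdh, xanthine dehydrogenase, was at -1.80 on day 0 and 0.78 on day 4 (change 2.58 ± 0.32, adjusted p = 0.00046). These 3 genes thus moved up relative to control in the injured muscle. In the other direction, Sox11 changed by -1.63 ± 0.26 (adjusted p = 0.0043), Sln by -1.65 ± 0.32 (adjusted p = 0.013), Car3 by -1.96 ± 0.29 (adjusted p = 0.0035), Adipoq by -1.76 ± 0.35 (adjusted p = 0.018) and Rpl3l by -2.33 ± 0.46 (adjusted p = 0.018), and none of these 5 had passed on day 0. Chac1, a glutathione-degrading enzyme of the stress response, was higher in emerin KO on day 0, by 3.08, and by 0.22 on day 4 (change -2.86 ± 0.51, adjusted p = 0.0081). Sox11 was low in resting muscle, with mean signals of 32.8 in emerin KO and 53.5 in control on day 0, and stood at 303 and 994 on day 3. The median of the interferon list was 0.13 on day 0, 0.88 on day 3 and 0.74 on day 4, and that of the matrix list was -0.68, -0.44 and -0.26.

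**Figure D4:**
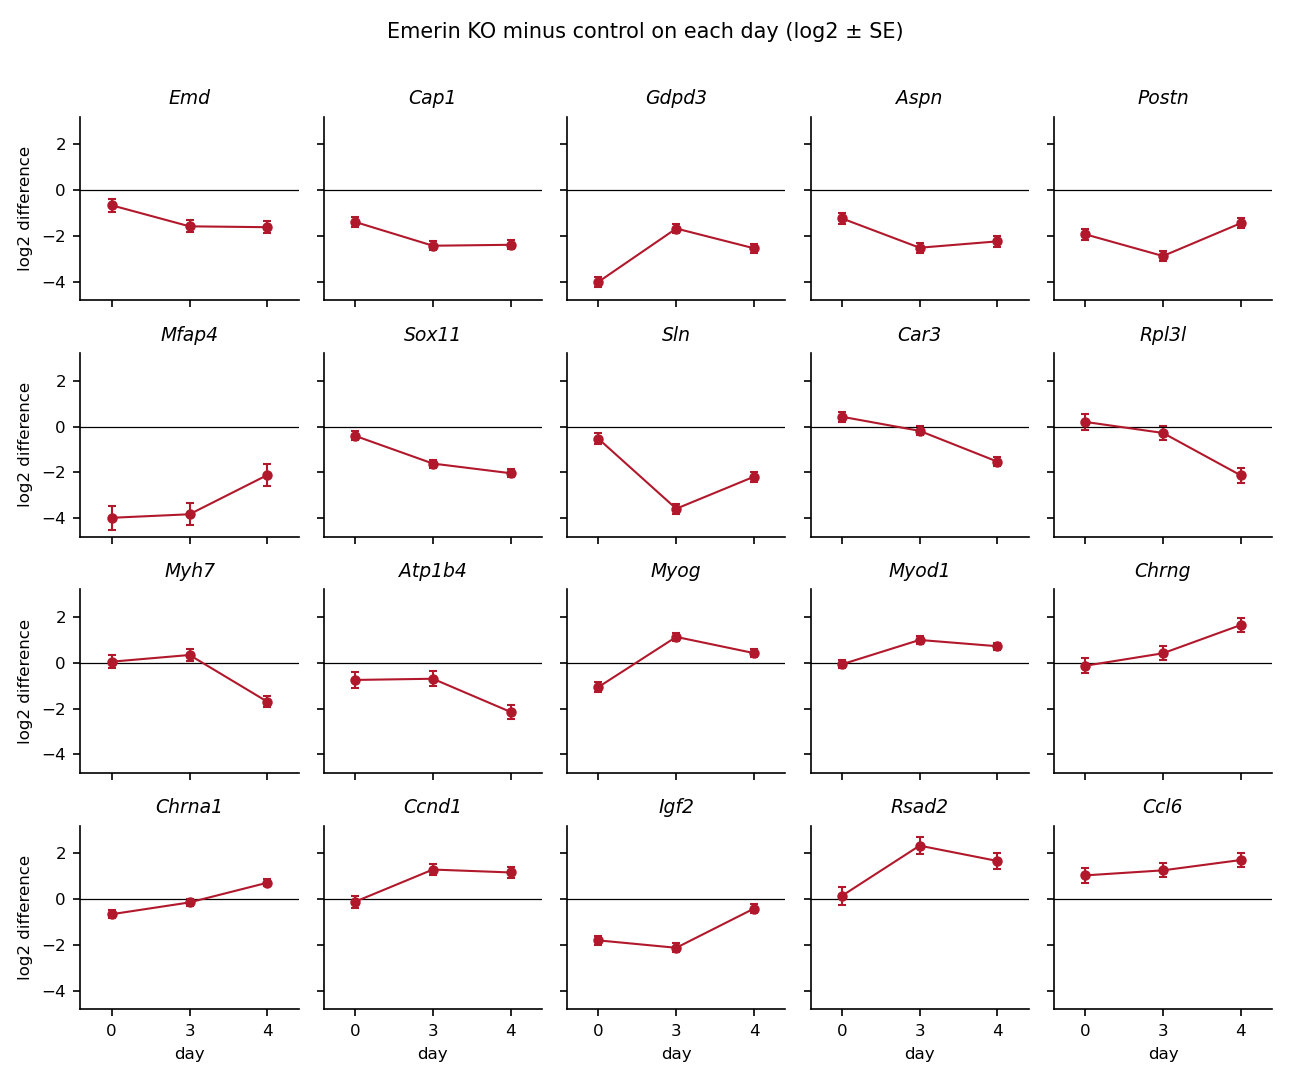
Log2 difference, emerin KO minus control, with SE bars, on days 0, 3 and 4 for 20 genes. Cap1, Gdpd3, Aspn, Postn and Mfap4 lie below 0 on all 3 days, while Car3, Rpl3l and Myh7 are clearly below 0 on day 4 alone and Chrng and Chrna1 are clearly above it on day 4 alone. Of Car3, Rpl3l, Myh7, Chrng and Chrna1, only Myh7 passed the test of the change from day 3 to day 4.

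Against lamin A/C KO on the same day, which leaves the control arrays out, 938 genes were higher (8.4%) and 895 lower (8.02%) in emerin KO, 16.4% of those tested in all. With the Gapdh ratio as a covariate 13 genes passed, and with replicate 2 as the only emerin KO array 39 passed. Of the 16 day 4 genes that passed with replicate 2 alone, 15 were also past the threshold in the same direction against lamin A/C KO; emerin KO is in both comparisons, so this is no independent support. Mean signals in lamin A/C KO were 3190 for Cap1, 1298 for Gdpd3, 2494 for Aspn, 742 for Sox11, 4729 for Sln and 711 for Emd, near the control means of 2922, 1114, 1939, 1040, 5941 and 692. Lmna averaged 4224 in emerin KO and 70.8 in lamin A/C KO (5.37, adjusted p = 7.5e-15). Cd5l, a macrophage-secreted survival protein, averaged 569 in emerin KO and 116 in lamin A/C KO (2.01, adjusted p = 5.7e-06). Control averaged 384 for Cd5l. Lamin A/C KO was lower than control (-1.48, adjusted p = 0.012 with limma), while emerin KO minus control, at 0.54, did not pass (adjusted p = 0.20). For the interferon genes Rsad2, Irf7 and Ifit1, lamin A/C KO averaged 1218, 905 and 703, between control and emerin KO. Their emerin KO minus lamin A/C KO differences of 0.62, 0.44 and 0.14 did not pass. The interferon gene Bst2 went otherwise: it averaged 239 in lamin A/C KO, near the control mean of 228. Its emerin KO minus lamin A/C KO difference of 1.41 passed (limma, adjusted p = 0.0013). Lamin A/C KO minus control passed in 5 genes (0.0448%), 0 higher and 5 lower in limma's test, while 540 genes (4.84%) had an unadjusted p under 0.05.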

How the data were processed

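Total RNA of mouse gastrocnemius was measured on 23 Affymetrix arrays in 9 groups of genotype and day. The authors deposited 1 MAS5 signal (intensity, linear scale) per probe set and array, per the submitters' processing notes; its version is not stated there. The deposited values had 1 trimmed mean per array, and no 2 arrays were identical.

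Arrays were brought to a common trimmed mean of 500 (2% trimmed, factor 3.332) and log2(signal + 32) was taken from the deposited intensities. Of 22690 probe sets, 20380 had 1 gene symbol, 691 several and 1555 none, and 64 were controls. The brightest stood for each of 12393 genes, and the 11164 that reached a signal of 100 on 2 or more arrays were tested. Linear models (limma 3.58.1, R 4.3.3, data.table, version 1.17.8, eBayes with an intensity trend) were fitted to all 9 groups, with 14 residual degrees of freedom, and checked on simulated data. Adjusted p-values are Benjamini-Hochberg over all genes of a comparison, and past the threshold means under 0.05. Fold bounds ("at least") set a group that is wholly under the minimum to a signal of 100. Plots were made in Python 3.11.15 with matplotlib 3.10.9.

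Genes are named by rule: Emd, Lmna, Rb1, Ccnd1, Myod1 and Myog; the 15 largest rises and falls past the threshold with arrays that do not overlap; up to 6 called members of each list; and up to 8 genes per direction of each interaction and of emerin KO minus lamin A/C KO. Markers and the genes that passed with replicate 2 alone are named besides. The comparison, the 38 lists (1051 symbols, 921 of them tested, with shared members) and the rule were chosen with earlier results of these data known, so lists are described without a test. Named genes read by probe sets that may share signal with relatives (IDs ending in _x_at or _s_at) are Aif1, Ccn3, Ighm, Laptm5, Mcm7, Mrpl19, Myl3, Pttg1, Rrm2 and Ssr4. At least 1 other probe set had the opposite sign for Ccl9, Chrng, Cklf, Col1a1, Cpe, Fabp4, Gfer, Hk1, Ighm, Il13ra1, Itgb1, Ndufs4, Pfkfb3, Pttg1, Rrm2, Sdhd, Sf3b2, Sfpq, Ssr4 and Tgfbr1. Alternatives were other scalings, pseudocounts, filters and probe set rules, no trend, the replicate number as a block, the compared groups alone, the Gapdh ratio as a covariate, replicate 2 alone and leaving out each array.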

Additional observations from a re-analysis of the deposited data

Results flagged for a closer look

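For the genes below the difference between emerin KO and control was not the same on day 4 as on another day, by a test of the change itself (limma, adjusted over all genes). Against day 3 the change was 1.71 for Igf2, 1.51 for Stbd1, 1.47 for Itgb1bp2 and 1.28 for Apip, and -2.04 for Myh7, all on the log2 scale. Against day 0 it was 2.59 for Spsb2, 2.58 for Xdh, 2.32 for Cklf, 2.02 for Acad10, 1.98 for Tent5c, 1.88 for Nuf2, 1.88 for Mybph, 1.87 for Ptgis, 1.48 for Myog and 1.46 for Gdpd3. Negative changes against day 0 were -2.86 for Chac1, -2.33 for Rpl3l, -2.19 for Pdzrn3, -2.13 for Pla2g7, -2.12 for Pfkfb3, -2.02 for Smoc1, -1.96 for Car3, -1.76 for Adipoq, -1.65 for Sln and -1.63 for Sox11.

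Spsb2, Cklf, Nuf2 (a kinetochore protein), Mybph (a myosin-binding protein), Ptgis (prostacyclin synthase) and Tent5c were lower in emerin KO on day 0 and did not pass on day 4. Pfkfb3, an enzyme that stimulates glycolysis, and Pla2g7, a lipid hydrolase of macrophages, were higher in emerin KO on day 0 and did not pass on day 4. Gdpd3 was lower on all 3 days, with day 0 means of 41.1 in emerin KO and 1131 in control and differences of -1.67 on day 3 and -2.53 on day 4. Groups of 2 or 3 arrays are too small for a test of single arrays that stand apart.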

How the results depend on the processing

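The 655 genes past the threshold became 377 with median scaling (155 higher, 222 lower), 182 when the 2 compared groups were fitted alone (103 higher, 79 lower, so 56.6% higher against 44.0%), 20 when the Gapdh ratio was a covariate and 17 with emerin KO replicate 2 alone. Leaving out 1 array gave 76 to 1225 genes: 241, 1225 and 200 without emerin KO replicates 1, 2 and 3, and 76 and 292 without control replicates 1 and 2. The other settings gave 445 to 777. The change from day 3 to day 4, 5 genes, became 8 with quantile normalization, 0 with median scaling (653 genes at an unadjusted p under 0.05), 1 with only the compared groups, 9 with the covariate, 17 with replicate 2 alone and 3 to 9 without 1 emerin KO array (3 without replicate 2, 9 without replicate 3). The change from day 0, 64 genes, became 2, 30 and 15 with the compared groups, the covariate and replicate 2 alone, and 39 to 173 without 1 array (173 without replicate 2, 39 without replicate 3); its share of positive changes was 62.5%, 76.7% with median scaling and 39.9% without replicate 2. Emerin KO minus lamin A/C KO, 1833 genes, became 13 with the covariate, 39 with replicate 2 alone, and 763 to 2343 without 1 array (1008 without replicate 1, 763 without replicate 3). The causes were not tested.

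With the replicate number as a replicate block the counts were 604 and, for the change from day 3, 9; the numbers pair nothing in the labels, and deviations of same-numbered arrays correlated at -0.03 and -0.20. Of 124 named genes past the threshold, 7 kept their call under every alternative, 24 with any 1 array left out and 10 with replicate 2 alone. Ighm, an immunoglobulin heavy chain, turned from 0.92 to -0.024 with the mean of its probe sets.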

Other observations

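Genes next to Emd on the X chromosome were read because a difference between mouse lines can travel with a targeted locus. Of the 20 protein-coding genes on each side, 23 in all were tested, 0 were higher and 1, Ssr4, a subunit of the translocon-associated protein complex, was lower in emerin KO, by -0.95 (limma, adjusted p = 0.016). Ssr4 had 1161, 1820 and 855 in emerin KO and 2631 and 2175 in control, and replicate 2 was the emerin KO array nearest to control. The share of 1 in 23 is close to the 5.87% of all genes. On day 0 a different neighbour, Opn1mw, a cone opsin, was higher in emerin KO by 2.24 (adjusted p = 0.00063), with mean signals of 241 in emerin KO and 25.9 in control, and on day 4 its difference was 0.19 (adjusted p = 0.80).

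When the Gapdh ratio was a covariate, 2 of the 20 genes that passed had not passed without it: Mrc1, the mannose receptor of tissue macrophages, and Rpl22, a ribosomal protein. Mrc1 had 1954, 3183 and 1685 in emerin KO and 1565 and 1713 in control, and was brightest on replicate 2. Slc4a3, an anion exchanger of muscle, passed both ways, with 293, 357 and 403 in emerin KO and 835 and 767 in control, and it was also lower on day 0 (-1.92, adjusted p = 5.8e-06). Csrp2, a LIM-domain protein, had 2448, 2642 and 2507 in emerin KO and 5281 and 5445 in control and was even over the emerin KO arrays. These genes were singled out after their values had been seen.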
